A study of Mus musculus with 6 samples.

Results

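Enzymes that handle peroxides, alcohols, aldehydes, quinones and foreign compounds were examined in the forearm bones of newborn mice carrying the del175k mutation of Tnni2 and of their wild-type littermates. The genes were chosen by symbol, as alcohol and aldehyde dehydrogenases, aldo-keto and carbonyl reductases, glutathione transferases and peroxidases, peroxiredoxins, thioredoxins and their reductases, superoxide dismutases, catalase, quinone reductases, haem oxygenases and cytochromes P450. The deposited table held 42 probe sets with exactly 1 such symbol, for 39 genes of 5780 named genes in all, and the brightest probe set stood for each gene. RefSeq lists 199 protein-coding mouse genes with these symbols, and the other genes were not analysed here.

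Total RNA of whole radii and ulnae was hybridised to 1 Affymetrix whole-transcript array per sample, with 3 mutant arrays and 3 wild-type arrays. Both groups were newborn and of strain 129sv, and the labels give no zygosity and no agent. Tnni2 encodes fast skeletal muscle troponin I, and the RNA came from bone with what adhered to it. Tnni2 was itself measured in these samples, and which cells expressed it was not tested. The labels speak of 3 pairs of mice and do not say which arrays form a pair. The comparison asks how expression differs in the bones of the mutants, and in such bulk samples fewer cells of a type and less RNA per cell cannot be told apart.

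These enzymes form linked chains. Superoxide dismutases turn superoxide into hydrogen peroxide, which catalase, glutathione peroxidases and peroxiredoxins remove. The peroxidases and peroxiredoxins, but not catalase, do so with electrons from glutathione or thioredoxin. Alcohol dehydrogenases oxidise alcohols, retinol among them, to aldehydes, and aldehyde dehydrogenases carry these on to acids. Cytochromes P450 oxidise steroids, retinoids and foreign compounds, and glutathione transferases couple reactive products to glutathione for export.

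Values are intensities on a linear scale, log2 differences are mutant minus wild type, and a gene was called at a limma p under 0.05 after Benjamini-Hochberg adjustment over all 8997 probe sets. Array medians were 47.6, 45.5 and 47.8 for the mutants and 39.6, 48.4 and 47.95 for the wild type. Wild-type replicate 1 was thus the dimmest array and had 1205 probe sets under an intensity of 20, against 405 to 558 on the others. Every probe set in the table reached 20 on at least 3 arrays. Some value under 20 was seen in 12 of the 39 genes, and 0 genes were under 20 throughout a group. Markers of the labelled tissue were present, with 7 of 11 osteoblast and 8 of 8 cartilage markers measured, beside 11 of 11 skeletal muscle markers and 6 of 11 epidermal markers. Of 7 listed osteoclast markers 4 were measured. They summed to 1690, 1177 and 1551 on the mutant arrays and to 594, 857 and 1028 on the wild-type arrays. The sum was higher in every mutant, as were Ctsk, Acp5 and Mmp9 singly, while the groups overlapped in Ocstamp. None of the 4 was called, and their part in the results was not tested.

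No enzyme gene passed the test, as was the case for every probe set (0 of 8997 called by limma, 0%, and 0 by the ordinary statistic of the same fit). Adh1 had the largest difference, with a 4.82-fold higher mean in mutant bone, and Aldh6a1, Gpx3 and Gstm1 also had higher means. Gstp1, Cbr2 and Aldh18a1 had lower means. These 7 genes were at an unadjusted p under 0.05. They are 17.9% of the 39, against 7.44% of all probe sets and 8.41% of all named genes by their brightest probe set. By direction there were 4 higher and 3 lower, where 5.74% and 1.7% of all probe sets stood. With array weights the counts were 5 higher and 4 lower, where 6.85% and 8.85% of all probe sets stood, so the share of lower genes was then close to that of all probe sets. The count of lower genes was 0 without mutant replicate 2, where 1.11% of all probe sets were lower at that level, and 0 without wild-type replicate 3, where 1.23% were. Without mutant replicate 2 the log2 differences were -0.64 for Aldh18a1, -0.56 for Cbr2 and -0.35 for Gstp1, and without wild-type replicate 3 they were -0.55, -0.46 and -0.57.

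As a whole the 39 genes were centred on the wild-type level. Higher means in the mutants were seen in 20 and lower means in 19. Among all probe sets 56.7% had higher means, and among all named genes 59.9%. After median centring the split was 17 higher and 22 lower, and after quantile normalization 15 and 24. The median log2 difference of the 39 genes was 0.03, beside 0.04 for all probe sets and 0.07 for all named genes. For the 39 it was -0.15 with array weights, which give the dim wild-type replicate 1 the lowest weight. Adh1 and Aldh6a1 differed 2-fold or more (2 genes, 5.13%), against 1.33% of all probe sets. The groups did not overlap in Adh1, Gstm1, Gpx3 and Sod2, which were higher on every mutant array, nor in Gstp1 and Gpx7, which were lower. These 4 and 2 genes compare with 9.18% and 3.89% of all probe sets. Together they are 15.4% of the 39, against 13.1% of all probe sets and 14.5% of all named genes.

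**Figure D1:**
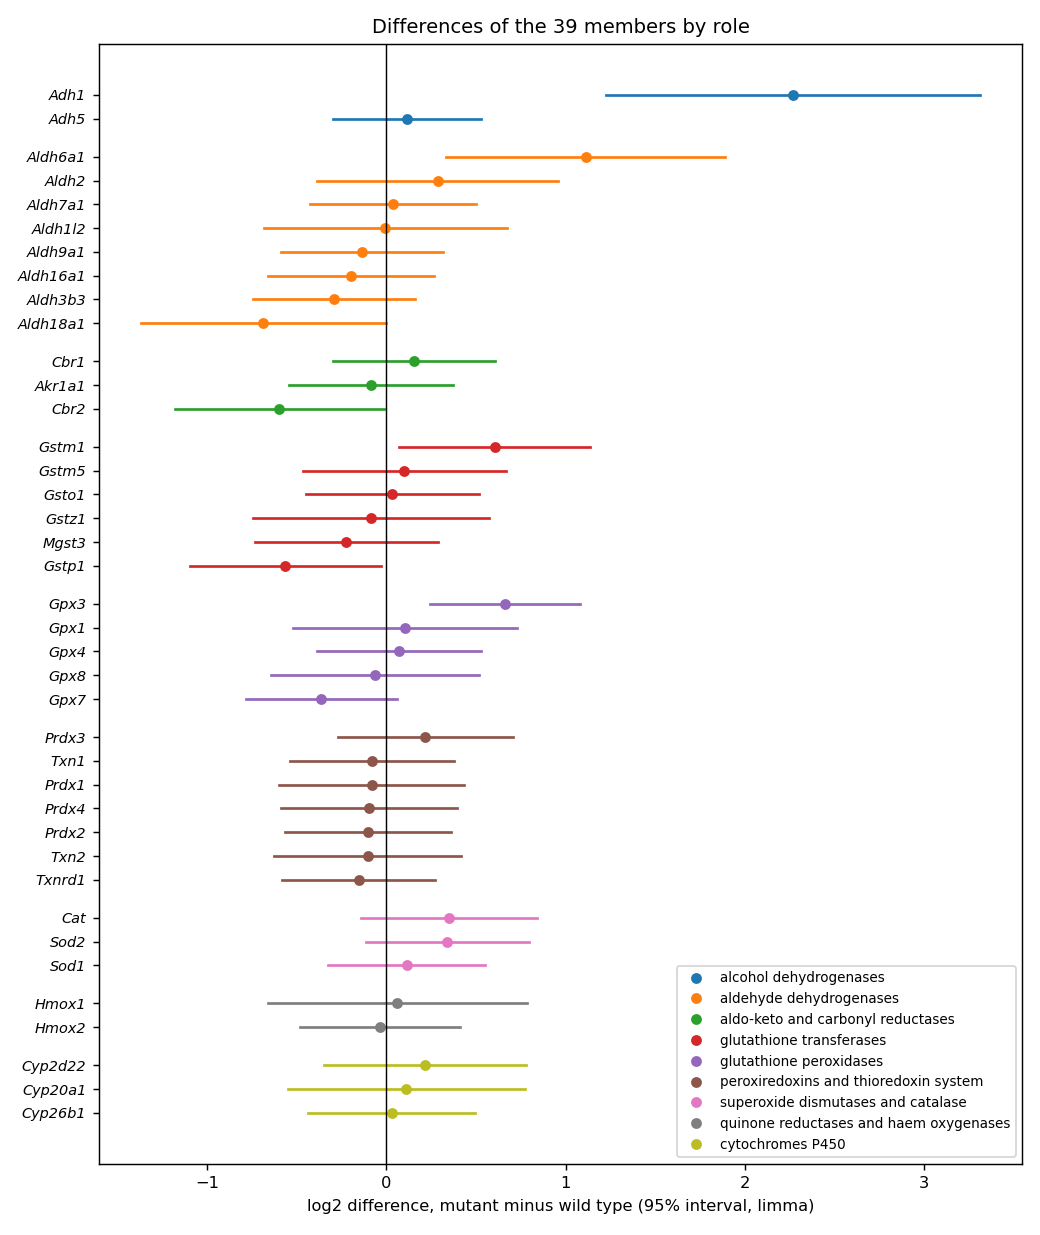
The log2 difference (mutant minus wild type) of each of the 39 genes is plotted as a point with its 95% interval from limma, coloured and grouped by role, with higher genes first within a role. Adh1 stands at 2.27 and Aldh6a1 at 1.11, and all 7 peroxiredoxin and thioredoxin genes lie between -0.15 and 0.22.

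Adh1, the class I alcohol dehydrogenase that oxidises ethanol and retinol, had intensities of 154, 166 and 56.4 on the mutant arrays, against 21.5, 41.3 and 14.5 on the wild-type arrays. The groups did not overlap, with mutant replicates 1 and 2 far above mutant replicate 3 and wild-type replicate 2 the highest of its group. Mean levels were 125 ± 60.0 in mutant bone and 25.7 ± 13.9 in wild-type bone (SD, n = 3 each). The log2 difference was 2.27 ± 0.47 (SE) with a 95% interval of 1.22 to 3.31, and it did not pass (limma adjusted p = 0.42). Without mutant replicate 3 it passed at 2.77 (limma adjusted p = 0.0402), while dropping any other single array gave 1.92 to 2.68 and no call. Its spread between replicates was also the widest of the 39 genes, with a residual SD of 0.82 on the log2 scale against a median of 0.24 for the 39. Raising all values under 20 to 20 left a difference of 2.11.

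Adh5, the class III enzyme that clears formaldehyde and S-nitrosoglutathione, was the other measured alcohol dehydrogenase of 6 in RefSeq. It was at 44.8, 40.4 and 44.99 in the mutants and at 39.3, 38.5 and 42.2 in the wild type. Its groups overlapped at a log2 difference of 0.12 (95% interval -0.29 to 0.53), and with a residual SD of 0.08 it had the least spread of the 39 genes.

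**Figure D2:**
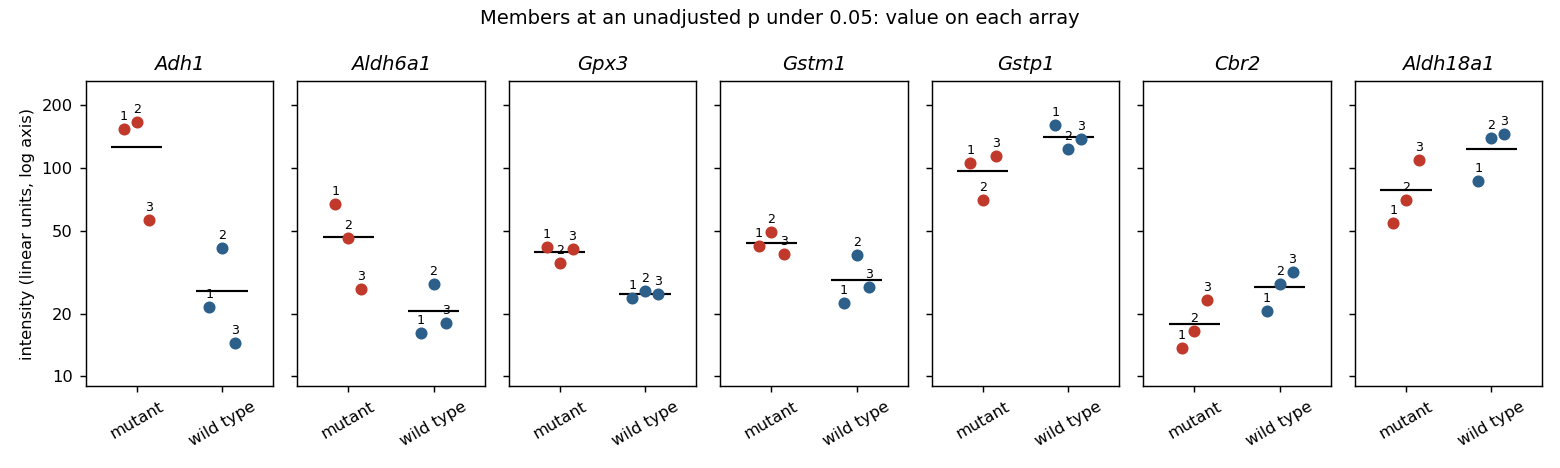
Intensities on a log axis are plotted for each array of the 7 genes at an unadjusted p under 0.05, with mutant samples left of wild-type samples, the replicate number above each point and a bar at the group mean. Mutant and wild-type points are separate in Adh1, Gpx3, Gstm1 and Gstp1 and overlap in Aldh6a1, Cbr2 and Aldh18a1.

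Aldehyde dehydrogenases were represented by 8 of 21 RefSeq genes, of which 3 had higher and 5 had lower means. Aldh6a1, the mitochondrial methylmalonate semialdehyde dehydrogenase of valine breakdown, was at 67.1, 46.1 and 26.3 in the mutants and at 16.2, 27.7 and 17.96 in the wild type. Mutant replicate 3 lay just below wild-type replicate 2, so the groups overlapped. Its log2 difference was 1.11 ± 0.35 (SE, 95% interval 0.34 to 1.89, limma adjusted p = 0.591), and its residual SD was second only to that of Adh1.

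Aldh18a1, which makes the precursor of proline from glutamate, went the other way. It was at 54.2, 70.1 and 109.2 in mutant bone and at 85.9, 139 and 145 in wild-type bone. Mutant replicate 3 lay above wild-type replicate 1, and the log2 difference was -0.69 ± 0.30 (SE, 95% interval -1.37 to -0.0046, limma adjusted p = 0.671). Proline is a main residue of collagen, and the collagen genes Col1a1 and Col1a2 differed by 0.04 and 0.08. The other collagen genes in the marker lists differed by -0.15 (Col3a1) to 0.37 (Col10a1). A link between Aldh18a1 and collagen was not tested.

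The other 6 aldehyde dehydrogenases, of which Aldh2 and Aldh3b3 are given by array after their values were seen, differed by -0.29 to 0.29. Aldh2, which clears acetaldehyde in mitochondria, was at 88.5, 92.1 and 109.8 in the mutants against 50.1, 119 and 82.8 in the wild type, with wild-type replicate 1 the lowest of all arrays. Aldh3b3 was at 288, 262 and 250.4 in the mutants against 382, 325 and 278 in the wild type, a log2 difference of -0.29 (95% interval -0.74 to 0.16). Aldh7a1, of lysine breakdown, and Aldh1l2, a mitochondrial folate enzyme, had the smallest differences, 0.04 and -0.01, and the sign of Aldh7a1 turned after median centring (-0.019). Aldh9a1, of carnitine synthesis, was at -0.14 and Aldh16a1 at -0.20.

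Of the carbonyl-reducing enzymes 3 of 21 RefSeq genes were measured. Cbr2, a mitochondrial carbonyl reductase best known from mouse lung, was at 13.7, 16.5 and 23.3 in mutant bone and at 20.5, 27.8 and 31.8 in wild-type bone. Mutant replicate 3 lay above wild-type replicate 1, and the gene differed by -0.60 ± 0.26 (SE, limma adjusted p = 0.669). It was dim, and its difference was -0.32 when values under 20 were raised to 20. Akr1a1, an aldehyde reductase that mice use to make ascorbate, was at 374, 421 and 457 in the mutants and at 372, 492 and 470.1 in the wild type. Cbr1, a cytosolic carbonyl reductase, differed by 0.15 (95% interval -0.30 to 0.60).

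Glutathione transferases split evenly, with 3 higher and 3 lower means among 6 of 25 RefSeq genes. Gstm1, a mu class enzyme, was at 42.2, 49.4 and 38.7 in mutant bone and at 22.5, 38.0 and 26.8 in wild-type bone. The groups were separate by a narrow margin, mutant replicate 3 lying just above wild-type replicate 2. The log2 difference was 0.60 ± 0.24 (SE, 95% interval 0.07 to 1.14, limma adjusted p = 0.667). Genes of the mu class are similar in sequence, and how far this probe set also reads its neighbours was not tested.

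Gstp1, the pi class enzyme, was at 105, 70.0 and 114 in the mutants and at 160.3, 123 and 137 in the wild type. The highest mutant array was below the lowest wild-type array, at means of 96.5 ± 23.4 and 140.2 ± 18.7 (SD, n = 3 each). The log2 difference was -0.56 ± 0.24 (SE, 95% interval -1.10 to -0.03, limma adjusted p = 0.667), and dropping mutant replicate 2 gave -0.35, while dropping mutant replicate 3 gave -0.70. A further 2 probe sets, listed for both Gstp1 and its near-identical neighbour Gstp2 and hence not counted here, differed by -0.29 and -0.28, with groups that overlapped.

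Gstp1 is well expressed in surface epithelia, and skin markers varied between the samples. The 6 measured epidermal markers, Krt1, Krt5, Krt10, Krt14, Lor and Krtdap, summed to 75.3, 460.4 and 51.3 on the mutant arrays and to 1798, 1248 and 47.3 on the wild-type arrays. All 6 had lower means in the mutants, and none was at 0. Wild-type replicate 1 had the highest epidermal sum and the highest Gstp1 of all arrays, while wild-type replicate 3 had the lowest epidermal sum and a Gstp1 of 137, and mutant replicate 2 had the highest epidermal sum of the mutants and the lowest Gstp1. The part of skin in the level of Gstp1 was not tested.

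The remaining transferases had small differences. Gstm5 differed by 0.10, Gsto1, of the omega class, by 0.03, Gstz1, the maleylacetoacetate isomerase of tyrosine breakdown, by -0.08, and the microsomal Mgst3 by -0.22. The sign of Gsto1 turned after median centring (-0.025) and quantile normalization (-0.052). Gstz1, Mgst3 and Gsto1 had values under 20 on 2, 3 and 1 arrays.

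Glutathione peroxidases, 5 of 8 RefSeq genes, had 3 higher and 2 lower means. Gpx3, the secreted selenoenzyme of plasma, was at 41.7, 35.1 and 41.0 in mutant bone and at 23.8, 25.6 and 24.9 in wild-type bone. The 2 groups were clearly apart, with means of 39.3 ± 3.62 and 24.8 ± 0.899 (SD, n = 3 each). The log2 difference was 0.66 ± 0.19 (SE, 95% interval 0.24 to 1.08), a 1.58-fold higher level that did not pass (limma adjusted p = 0.587). Dropping single arrays kept the difference between 0.62 and 0.74. Among the 39 genes only Adh5 had a smaller residual SD.

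Gpx7, a peroxidase of the endoplasmic reticulum that acts in oxidative protein folding, had the opposite order. It was at 27.9, 28.8 and 33.5 in mutant bone and at 36.5, 38.99 and 40.1 in wild-type bone. The groups did not overlap, and the log2 difference was -0.36 ± 0.19 (SE, 95% interval -0.78 to 0.059, limma adjusted p = 0.708). Its relative Gpx8 in the same compartment was at 66.0, 70.1 and 115 in the mutants and at 69.7, 96.8 and 90.0 in the wild type, a difference of -0.06 with mutant replicate 3 the highest of all arrays. Gpx4, which reduces lipid hydroperoxides in membranes, differed by 0.07 on its brighter and 0.06 on its dimmer probe set, and the first turned to -0.066 with array weights.

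Gpx1, the main cytosolic glutathione peroxidase and abundant in red cells, varied more within groups than between them and was picked, like Prdx2, after its values were seen. It was at 220.4, 173 and 119.7 in the mutants and at 162, 117 and 193 in the wild type, a log2 difference of 0.10 (95% interval -0.52 to 0.73). The 3 measured of 13 listed erythroid markers, Alas2, Ermap and Slc4a1, summed to 515, 218 and 157 in the mutants and to 277, 133 and 289 in the wild type, and none was at 0. On both measures mutant replicate 1 was highest, wild-type replicate 3 next, and mutant replicate 3 and wild-type replicate 2 lowest. The single markers differed in order, with wild-type replicate 3 next on Ermap, mutant replicate 2 on Alas2 and wild-type replicate 1 on Slc4a1. Prdx2 was highest on wild-type replicate 3. The part of red cells in the level of Gpx1 was not tested.

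**Figure D3:**
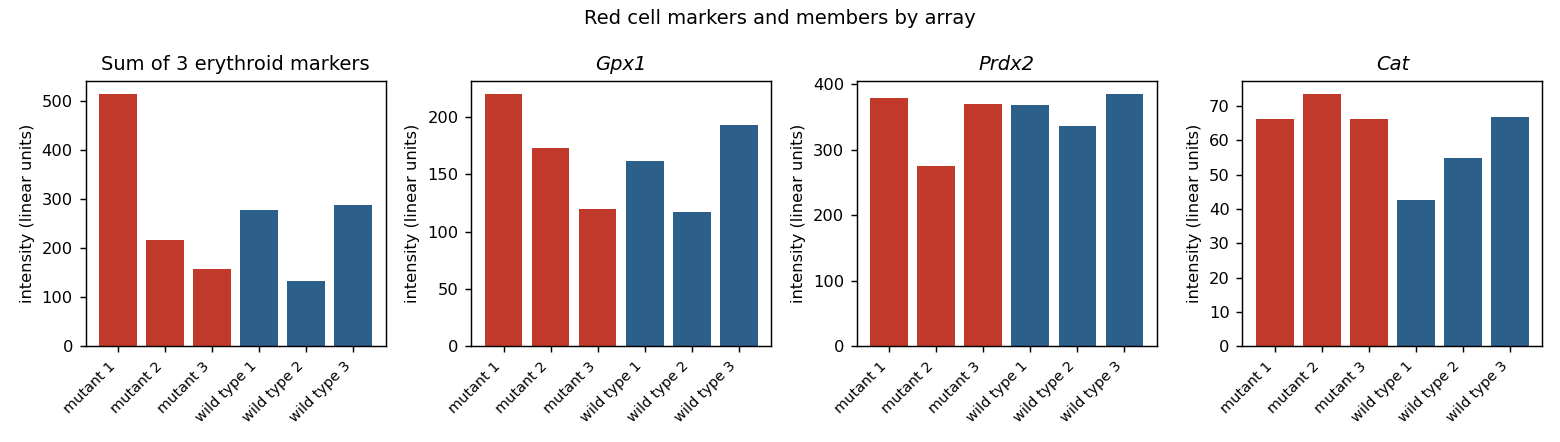
Bars give the intensity on each array (linear axis from 0, mutant in red left of wild type in blue) for the sum of the 3 erythroid markers and for Gpx1, Prdx2 and Cat, enzymes known from red cells. Mutant replicate 1 is highest for the marker sum and for Gpx1, while Prdx2 has its lowest bar in mutant replicate 2 and Cat in wild-type replicate 1.

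Peroxiredoxins and the thioredoxin system, 7 of 11 RefSeq genes, had 6 lower means and 1 higher, and all differences were small. Prdx2, an abundant peroxiredoxin of red cells, was at 379, 275 and 370.0 in the mutants and at 369, 335 and 385 in the wild type. Txn1, the cytosolic thioredoxin, was at 313, 388 and 353 in mutant bone and at 315, 387 and 416 in wild-type bone. In both genes the groups overlapped widely.

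The log2 differences of this group ran from -0.15 for Txnrd1, the selenoenzyme that reduces thioredoxin, to 0.22 for Prdx3, the peroxiredoxin of mitochondria. The 95% interval of Txnrd1 was -0.58 to 0.27 and that of Prdx3 was -0.27 to 0.70, and differences of these sizes remain possible. The value of Prdx3 was 0.043 without wild-type replicate 1 and 0.31 without wild-type replicate 2. Prdx1 was at -0.08, the endoplasmic Prdx4 at -0.10 and the mitochondrial Txn2 at -0.10. The dimmer probe sets of Prdx1 and Prdx2 gave -0.16 and 0.10, so the 2 probe sets of Prdx2 (-0.10 on the brighter) disagreed in sign. Without wild-type replicate 3 the count was 3 lower and 4 higher, and it was 6 lower and 1 higher after median centring and quantile normalization.

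Superoxide dismutases and catalase, 3 of 4 RefSeq genes, all had higher means in mutant bone under all 3 scalings and whichever single array was dropped. Sod2, the manganese enzyme of mitochondria, was at 47.6, 48.2 and 48.7 in the mutants and at 32.8, 36.4 and 46.2 in the wild type. The mutant arrays were nearly equal and lay above the widely spread wild-type arrays, and the log2 difference was 0.34 ± 0.20 (SE, 95% interval -0.11 to 0.79, limma adjusted p = 0.720). Cat, the peroxisomal catalase, was at 66.1, 73.6 and 66.2 in the mutants and at 42.5, 54.8 and 66.7 in the wild type. Its difference of 0.35 (95% interval -0.14 to 0.84) was 0.18 without the dim wild-type replicate 1. Sod1, the cytosolic enzyme, differed by 0.11.

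Hmox1, the inducible haem oxygenase and a common indicator of oxidative stress, was at 44.0, 46.3 and 19.2 in mutant bone and at 31.3, 35.6 and 30.9 in wild-type bone. Mutant replicates 1 and 2 were the highest and mutant replicate 3 the lowest of all arrays. The mean log2 difference was 0.06 (95% interval -0.66 to 0.78), it turned to -0.019 after quantile normalization, and it was 0.47 without mutant replicate 3. Hmox2, the constitutive enzyme, differed by -0.04. The quinone reductases Nqo1 and Nqo2 were not analysed here.

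Cytochromes P450 are the largest of these families in the genome, with 99 RefSeq genes, and 3 were measured. Cyp26b1, which degrades retinoic acid in the developing limb, was at 29.99, 23.1 and 23.3 in the mutants and at 28.6, 24.0 and 22.2 in the wild type, with groups that overlapped. Cyp20a1 differed by 0.11 and Cyp2d22 by 0.22. The value of Cyp2d22 was 0.0057 with values under 20 raised to 20, 0.073 without wild-type replicate 2 and 0.47 without wild-type replicate 1. All 3 means were higher in the mutants, but Cyp26b1 turned after median centring (-0.027), and Cyp26b1 (-0.057) and Cyp20a1 (-0.00046) turned after quantile normalization. Cyp20a1 and Cyp2d22 were under 20 on 2 and 3 arrays.

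**Figure D4:**
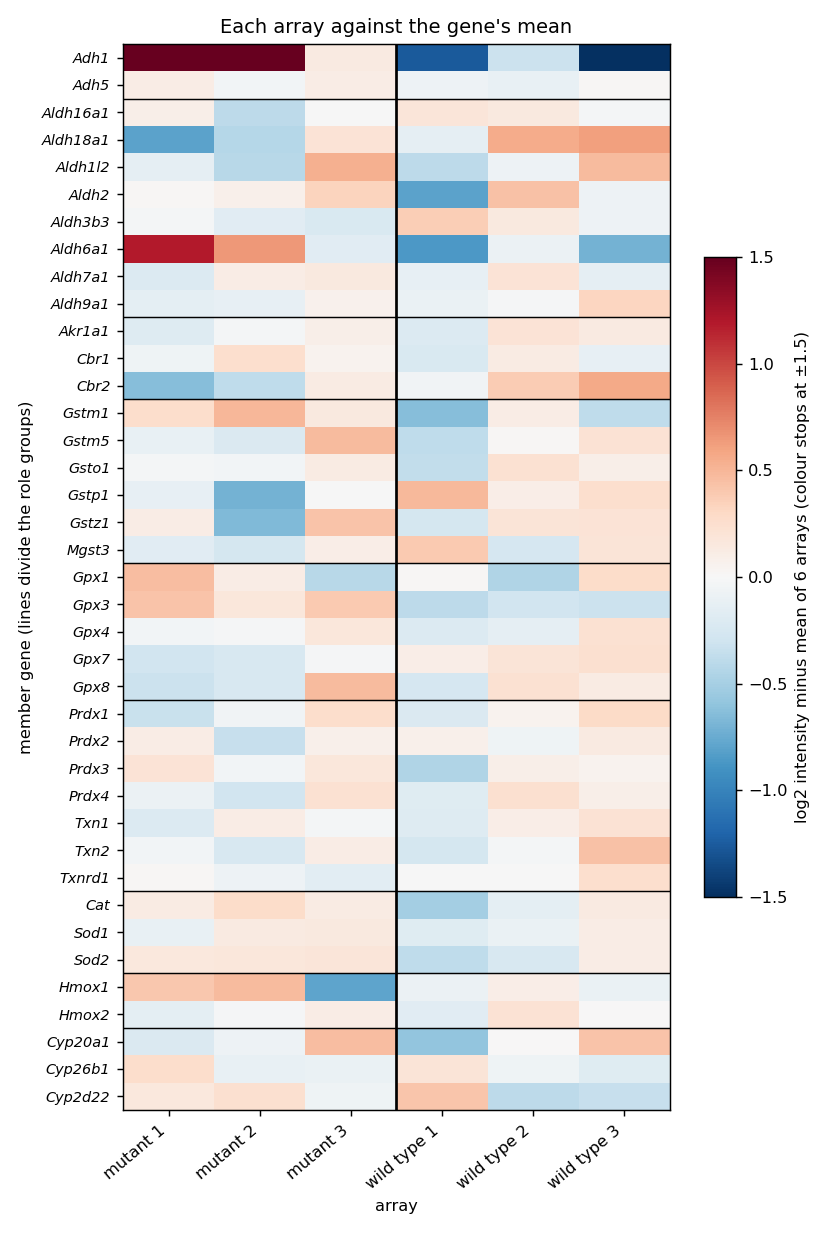
Each row is 1 of the 39 genes and each column an array, with mutant arrays left of wild-type arrays; colour gives the log2 intensity minus the gene's mean over the 6 arrays. Adh1 and Aldh6a1 are high on mutant replicates 1 and 2, and wild-type replicate 1 is low for Aldh2, Gstm1, Prdx3 and Cat.

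The mutant arrays did not contribute evenly to the 7 genes at an unadjusted p under 0.05. In 6 of these 7 mutant replicate 3 was the mutant array closest to the wild-type mean, the exception being Gpx3. This was so in 65.5% of the 669 probe sets at that level. Over all 39 genes mutant replicate 1 was closest in 15, mutant replicate 2 in 10 and mutant replicate 3 in 14. The share for mutant replicate 3 was 35.9%, against 40.3% of all probe sets.

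Promoters are shown for Adh1 and Gpx3, which had the largest differences of the alcohol dehydrogenases and glutathione peroxidases, and for 3 genes that hold a match to the antioxidant response element, the site bound by the stress factor NRF2. The 250 bases before the start of each gene were taken from RefSeq (GRCm38.p6), in which 34 of the 39 genes were matched, using the outermost start. Both strands were searched for the antioxidant response element core, spelled TGACNNNGC, for the TATA box, spelled TATAAA, for a site of the FoxO factors, spelled GTAAACA, and for the palindrome of the glucocorticoid receptor. The matches shown do not overlap each other. Sequences run 5′ to 3′ on the gene's strand, with matches in capitals.
Adh1 (chr3:138277335-138277584, plus strand): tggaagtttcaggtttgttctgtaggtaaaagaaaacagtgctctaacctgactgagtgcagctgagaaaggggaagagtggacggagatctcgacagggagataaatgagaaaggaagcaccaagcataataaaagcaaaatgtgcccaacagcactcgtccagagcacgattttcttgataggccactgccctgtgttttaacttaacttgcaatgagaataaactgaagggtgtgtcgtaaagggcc
Gpx3 (chr11:54902604-54902853, plus strand): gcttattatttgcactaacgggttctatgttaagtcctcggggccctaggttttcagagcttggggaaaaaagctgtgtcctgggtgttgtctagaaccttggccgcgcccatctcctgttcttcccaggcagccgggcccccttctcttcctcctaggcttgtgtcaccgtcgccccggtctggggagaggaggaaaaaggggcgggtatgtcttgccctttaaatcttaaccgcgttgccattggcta
Gstm5 (chr3:107895604-107895853, plus strand): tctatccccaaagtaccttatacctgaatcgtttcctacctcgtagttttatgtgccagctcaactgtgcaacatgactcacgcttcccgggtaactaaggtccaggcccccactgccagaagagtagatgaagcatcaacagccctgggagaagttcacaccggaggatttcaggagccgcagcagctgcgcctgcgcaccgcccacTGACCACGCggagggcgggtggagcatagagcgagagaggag
Prdx1 (chr4:116685349-116685598, plus strand): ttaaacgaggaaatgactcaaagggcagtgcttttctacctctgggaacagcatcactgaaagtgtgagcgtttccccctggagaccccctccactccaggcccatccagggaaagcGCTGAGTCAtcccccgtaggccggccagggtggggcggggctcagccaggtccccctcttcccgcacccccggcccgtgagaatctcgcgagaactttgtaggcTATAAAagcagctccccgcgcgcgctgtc
Sod1 (chr16:90220512-90220761, plus strand): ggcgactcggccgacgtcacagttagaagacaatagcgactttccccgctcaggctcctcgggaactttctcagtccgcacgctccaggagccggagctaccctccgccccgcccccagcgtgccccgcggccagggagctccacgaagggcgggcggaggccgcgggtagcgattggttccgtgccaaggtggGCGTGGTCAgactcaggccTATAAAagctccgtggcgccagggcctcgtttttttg

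The antioxidant response element core was found in 4 of the 34 promoters, those of Gstm5, Prdx1, Sod1 and Aldh9a1, which is 11.8% against 10.2% of all 32851 RefSeq windows of this length. The first base of the match lay 42 bases before the start in Gstm5, 133 in Prdx1, 56 in Sod1 and 87 in Aldh9a1. The log2 differences of these 4 genes were 0.10, -0.08, 0.11 and -0.14, with mutant and wild-type values that overlapped. The FoxO site and the glucocorticoid receptor palindrome were found in 0 of the 34 promoters, against 3.17% and 0.387% of all windows, and the TATA box in 6, or 17.6%, against 12.4%. A match is a description of these letters and not a bound site.

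Genes that feed or control these enzymes did not pass either. Of 15 measured genes of glutathione supply and the NRF2 circuit, 11 had higher means, at a median of 0.10, with 7 after quantile normalization, 7 when mutant replicate 1 was dropped and 8 when wild-type replicate 1 was. Txnip, the inhibitor of thioredoxin, was at 459, 367 and 471 in mutant bone and at 216, 271 and 301 in wild-type bone, without overlap. Its log2 difference was 0.72 (limma adjusted p = 0.591). Bach1, a repressor of Hmox1 and other NRF2 targets, was at 42.5, 39.1 and 37.3 in the mutants and at 23.2, 34.9 and 28.4 in the wild type, also without overlap, a difference of 0.48 (limma adjusted p = 0.671).

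Retinoid partners of Adh1 and Cyp26b1 lay on both sides, with 6 of 9 higher at a median of 0.08, where 56.7% of all probe sets were higher. Without wild-type replicate 1 the count was 4 of 9 at a median of -0.050, and after quantile normalization it was 5 of 9 at 0.0023. Dhrs3, which reduces retinaldehyde to retinol, was at 108, 112 and 79.1 in mutant bone and at 48.3, 85.8 and 60.7 in wild-type bone. Mutant replicate 3 lay below wild-type replicate 2, and the log2 difference was 0.65 (limma adjusted p = 0.667). Rbp4, the plasma carrier of retinol, was at 34.6, 40.03 and 28.7 in the mutants and at 45.3, 40.7 and 45.2 in the wild type, below it on every array, a difference of -0.36 (limma adjusted p = 0.711).

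Genes of sterol synthesis, the pathway of the P450 enzyme Cyp51, had lower means in 11 of 12, at a median of -0.25, where 43.3% of all probe sets had lower means. The count was 11 after both scalings and 12 without wild-type replicate 1, when 55.3% of all probe sets had lower means, but 7 without mutant replicate 2. Dropping mutant replicate 3 gave a median of -0.47, dropping wild-type replicate 1 gave -0.44, and dropping mutant replicate 2 gave -0.18. Many of these genes were dim. Sqle, Dhcr7 and Nsdhl were under 20 on 2 arrays each, and Msmo1, Mvk, Ebp, Sc5d and Hmgcs1 on 1 each. The median of this list with a floor of 20 is not given here. Sqle, the squalene epoxidase, was at 16.2, 15.2 and 23.0 in mutant bone and at 22.8, 29.7 and 33.1 in wild-type bone, a log2 difference of -0.66 (limma adjusted p = 0.645). Srebf2, the transcription factor that drives the pathway, was at 67.2, 59.6 and 79.9 in the mutants and at 74.2, 108 and 97.2 in the wild type, a difference of -0.43 (limma adjusted p = 0.708). In both genes mutant replicate 3 overlapped the wild type. Cyp51 itself was not analysed here.

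Electron donors of P450 enzymes had 3 of 4 higher means at a median of 0.03, which became 1 of 4 after median centring, 2 of 4 after quantile normalization and 1 of 4 without wild-type replicate 1. Their members of smallest p were Cyb5r1 at 0.24 and Cyb5b at -0.23. Among 7 other detoxification enzymes 5 had higher means. Fmo1, a flavin monooxygenase, was at 43.1, 49.7 and 37.4 in mutant bone and at 19.6, 30.1 and 23.8 in wild-type bone. Its groups were separate, at a log2 difference of 0.84 that did not pass (limma adjusted p = 0.562), and Ugdh, which makes UDP-glucuronate, followed at 0.41.

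**Figure D5:**
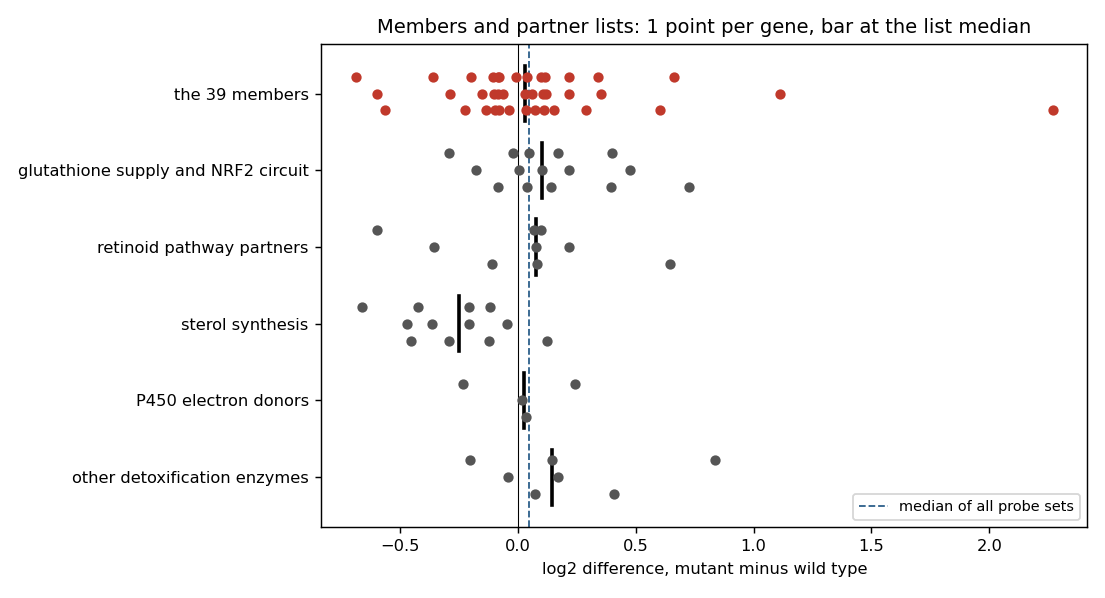
Each point is the log2 difference (mutant minus wild type) of 1 gene, for the 39 enzyme genes in red and for 5 lists of partner genes in grey, with a bar at the median of each list and a dashed line at the median of all probe sets. The medians lie at 0.03 for the enzymes and at -0.25 for sterol synthesis, where 11 of 12 points lie below 0.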

How the data were processed

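The authors deposited 1 table of intensities on a linear scale, with 1 value for each of 8997 probe sets on each of 6 arrays. How background, summarisation and scaling were handled is not given in the sources used here. Biotin labelling with Affymetrix whole-transcript kits is per the labels' protocols. The platform annotation gave 1 gene symbol to 6398 probe sets, several to 576 and none to 2023, and the symbols of the 39 genes matched RefSeq (GRCm38.p6) through Entrez identifiers.

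Intensities were converted to log2 with no filter. A 2-group model was fitted in limma 3.58.1 (lmFit, eBayes, two-sided) under R 4.3.3, and p-values were adjusted over all probe sets. The fit was run on simulated data with known changes added. The shares it recovered are not given here, and a lack of calls does not show a lack of change. Promoters and plots used Python 3.11.15, pandas 2.3.3 and matplotlib 3.10.9. Levels are not compared between probe sets. Whether each array held 1 mouse is not stated, so the p-values reflect only how these samples vary, possibly for technical reasons, and the number of arrays limits the precision.

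The genes and lists were chosen with earlier results of these data known. Within each role the text gives genes whose groups did not overlap, the 2 of smallest p and the 2 of smallest difference, and the rest briefly; in partner lists, the 2 of smallest p. Counts of list members under other scalings and without single arrays were added after the data were seen. Alternatives were other scalings, filters on dim probe sets, a floor of 20, variance models, array weights, a replicate block, other choices of probe set, and leaving out each array.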

Additional observations from a re-analysis of the deposited data

How the results depend on the processing

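Over 17 alternatives the 29 genes named by the rule gave 466 log2 differences, of which 427 kept their direction, and the 7 genes at an unadjusted p under 0.05 kept it in every alternative that retained them. Variance models, the ordinary statistic, the replicate block, 1 probe set per gene and the filters on dim probe sets leave a log2 difference unchanged. A kept direction was thus fixed in advance in those alternatives. The number of probe sets called was 4 with array weights and 0 to 15 with single arrays left out, and the number of enzyme genes called was 0 to 1, the 1 being Adh1 without mutant replicate 3. The median difference of the genes was -0.15 with array weights and -0.092 to 0.063 with single arrays left out. Genes at an unadjusted p under 0.05 were 2 higher and 1 lower by the ordinary statistic, where 3.33% and 1.73% of all probe sets stood. Without the dimmer 50% of probe sets they were 1 higher and 2 lower among the 17 genes left. Of the probe sets left, 5.47% and 1.71% stood there. With single arrays left out they were 3 to 4 higher and 0 to 3 lower. For those settings shares of all probe sets are given above only for lower genes, without mutant replicate 2 and without wild-type replicate 3. Separate groups were seen in 5 lower genes after quantile normalization, and in 1 higher and 1 lower without the dimmer 50%. With single arrays left out they were seen in 5 to 7 higher and 2 to 5 lower, where smaller groups overlap less. Shares of all probe sets with separate groups are not given for these settings, so these counts have no background to be read against. Signs turned after quantile normalization for Aldh7a1 (-0.018), Gsto1 (-0.052), Hmox1 (-0.019), Cyp20a1 (-0.00046) and Cyp26b1 (-0.057), and after median centring for Aldh7a1 (-0.019), Gsto1 (-0.025) and Cyp26b1 (-0.027). With values under 20 set to 20 they turned for Aldh1l2 (0.00063), Gstz1 (0.048) and Cyp20a1 (-0.014), and with array weights for Gsto1 (-0.12), Gpx4 (-0.066) and Cyp20a1 (-0.22). With single arrays left out the ranges were -0.28 to 0.23 for Aldh1l2, -0.025 to 0.15 for Aldh7a1, -0.14 to 0.15 for Gsto1, -0.32 to 0.23 for Gstz1, -0.014 to 0.21 for Gpx4, -0.32 to 0.084 for Gpx8, -0.24 to 0.067 for Prdx1, -0.20 to 0.0041 for Txn1, -0.16 to 0.47 for Hmox1, -0.13 to 0.065 for Hmox2, -0.16 to 0.35 for Cyp20a1 and -0.093 to 0.13 for Cyp26b1. The cause of these turns was not tested. Whether equal replicate numbers mark pairs is not known. Deviations of equally numbered arrays from their group means correlated at -0.11, -0.026 and 0.32. With 3 arrays per group, and effects of whole arrays in these values, they cannot decide it. With the replicate block 0 probe sets were called, and the median difference was 0.03. At an unadjusted p under 0.05, 4 genes stood higher and 3 lower, beside 4.95% and 2.62% of all probe sets. With 3 arrays per group, small differences had signs that single arrays could turn, in bright genes such as Txn1 as well as in dim ones.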
